A study of Homo sapiens with 36 samples.

Results

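The 10 transcripts described here belong to cell cycle and mitosis genes. They were chosen by their Ensembl transcript ID from a fixed list that pairs 1 ID with each gene. They are ENST00000379143.9 (PCNA), ENST00000265056.11 (MCM2), ENST00000423485.5 (TOP2A), ENST00000368654.7 (MKI67), ENST00000274026.9 (CCNA2), ENST00000256442.9 (CCNB1), ENST00000395284.7 (CDK1), ENST00000300093.8 (PLK1), ENST00000302759.10 (BUB1) and ENST00000310955.10 (CDC20). All 10 were found among 223367 transcripts of the deposited table, and all 10 passed the filter on low values that left 51052 transcripts for testing. Levels are in TPM, an abundance estimate that is corrected for transcript length and sums to the same total in every library, so levels can be compared between transcripts. Each gene is represented by a single ID and its other isoforms were not analysed here, so a difference in an ID cannot be told apart from a shift between isoforms.

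The cells were HUES6, a human embryonic stem cell line, with a knockout of RBPMS, which encodes an RNA-binding protein (KO), or without it (WT). Cells of both genotypes grew in FTDA medium, and all received cycloheximide, which holds ribosomes on mRNA, at 100 ng/ml for 5 min before lysis. Lysates were separated on a polysome gradient, and RNA was sequenced from the unfractionated Input and from the 40S, 80S, disome, Polysome1 and Polysome2 fractions of 3 KO and 3 WT cultures, giving 36 libraries in 12 groups of 3. The labels do not say whether the KO cultures derive from 1 clone, and the Input of KO replicate 3 carries the name Input2 in its description, unlike the other Inputs. The labelled cell type was not checked against marker genes, because no table used here pairs the other transcript IDs with genes.

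Dividing cells copy their DNA in S phase and separate the copies in mitosis, and many of the proteins that do this are made anew in every cycle. Cyclins bind and activate cyclin-dependent kinases such as CDK1, and the destruction of mitotic cyclins by the anaphase-promoting complex ends mitosis. Pluripotent stem cells divide fast, with a short G1 phase. In bulk RNA, fewer cells in a phase and less RNA per cell cannot be told apart. Genes that peak in G2 and mitosis are often controlled through promoter CCAAT boxes, bound by the factor NF-Y, and through the cell cycle genes homology region (CHR), which the DREAM and MuvB complexes bind.

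Promoter sequence of 5 of the genes is shown because they differ in their matches. CDC20, PLK1, CCNB1 and CCNA2 act in mitosis or in S phase and G2 and hold a CCAAT box. CDC20 and PLK1 also hold TTTGAA, the only form of the CHR core that was searched for. MCM2, a replication gene, held neither sequence. All 10 genes matched a RefSeq promoter window by symbol. Each line gives the 120 bases before the RefSeq gene start (GRCh38.p14), 5′ to 3′ on the strand of the gene, and capitals mark CCAAT or TTTGAA, each on either strand.
CDC20, chr1:43358861-43358980, plus strand: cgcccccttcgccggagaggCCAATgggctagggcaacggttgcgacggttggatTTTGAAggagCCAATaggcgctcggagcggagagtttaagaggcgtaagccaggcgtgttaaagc
PLK1, chr16:23678769-23678888, plus strand: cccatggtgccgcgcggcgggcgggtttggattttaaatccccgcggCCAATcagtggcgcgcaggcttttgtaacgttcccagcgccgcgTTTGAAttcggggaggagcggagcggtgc
CCNB1, chr5:69167030-69167149, plus strand: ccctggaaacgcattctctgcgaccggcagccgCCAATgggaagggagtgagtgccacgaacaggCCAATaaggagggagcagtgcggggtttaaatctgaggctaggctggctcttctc
CCNA2, chr4:121823884-121824003, minus strand: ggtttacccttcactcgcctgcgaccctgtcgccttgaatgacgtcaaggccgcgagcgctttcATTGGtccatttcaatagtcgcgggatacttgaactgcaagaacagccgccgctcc
MCM2, chr3:127598291-127598410, plus strand: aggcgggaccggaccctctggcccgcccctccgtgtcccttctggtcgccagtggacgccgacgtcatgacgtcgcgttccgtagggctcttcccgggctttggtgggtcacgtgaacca

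Over whole windows of 250 bases before to 50 bases after the start, CCAAT (or its reverse complement ATTGG) was found for 9 of the 10 genes, all but MCM2. Across 27305 genes of the same table, 35.7% of windows held it. TTTGAA (or TTCAAA), the CHR core, was found for CDK1, TOP2A, MKI67, PLK1 and CDC20, and 15.4% of all windows held it. Other forms of the CHR were not searched for, so a gene without TTTGAA may still hold a CHR. In CDC20 a TTTGAA began at -65 and was followed by a CCAAT at -55, and in PLK1 a CCAAT at -73 was followed by a TTTGAA at -29. In MKI67 the TTTGAA at -29 shares a base with an ATTGG at -24, and no other pair of matches overlaps. These are letter matches and not measured binding sites.

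**Figure D1:**
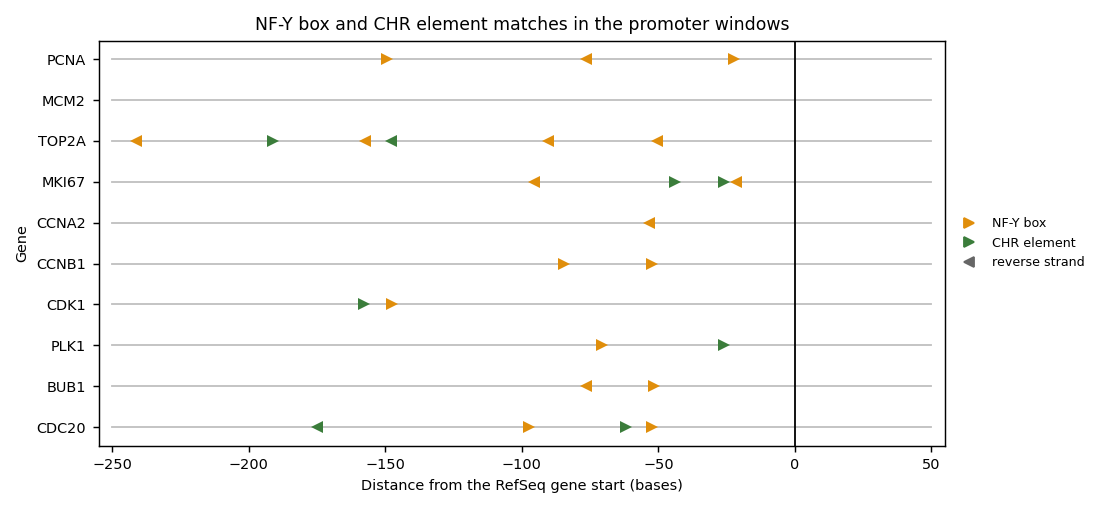
Matches to the NF-Y box (CCAAT) and the CHR element (TTTGAA only) in the promoter window of each gene. The x axis gives the distance in bases from the RefSeq gene start, with 1 line per gene. Arrows point right for a match on the strand of the gene and left for the opposite strand. MCM2 has no match, and 9 genes have at least 1 NF-Y box.

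Some libraries stood apart over all transcripts. KO replicates 1 and 2 held 18666 and 21914 transcripts at 1 TPM or more in Input and KO replicate 3 held 31380, against 34899 to 38389 in WT Input. KO disome replicate 1 held 9867, with 70.5% of its TPM in 10 transcripts, and WT 40S replicate 3 held 8956, the lowest number of the 36 libraries. The summed TPM of the synthetic ERCC spike-in RNAs was 306 to 1271 in KO Input and 33.4 to 166 in WT Input.

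In WT Input the 10 transcripts spanned a wide range of levels. PCNA, the sliding clamp of DNA polymerase, was highest at 214 ± 32.1 TPM (SD, n = 3), and CDC20, the mitotic activator of the anaphase-promoting complex, came next at 127 ± 10.1 TPM. Their replicates did not overlap with each other or with the next transcript. PLK1 (67.1 ± 14.3 TPM), CDK1 (56.4 ± 5.46 TPM) and CCNB1 (50.9 ± 4.08 TPM) followed, and neighbours among these 3 overlapped. Below them, neighbours also overlapped among TOP2A (34.6 ± 6.82 TPM), MCM2 (34.4 ± 6.57 TPM), CCNA2 (27.5 ± 8.91 TPM) and BUB1 (23.7 ± 5.09 TPM). MKI67 was lowest at 1.60, 0.764 and 1.89 TPM in the 3 WT Input libraries, and it reached 1 TPM in 5 of the 36 libraries.

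Across Input and the gradient, 8 of the 10 transcripts had their highest single value in Polysome2, the heavier of the polysome fractions. The share of all tested transcripts with their highest value there was not counted. CCNB1, CCNA2, CDK1, TOP2A and MCM2 peaked in KO Polysome2 replicate 3, and PLK1, CDC20 and PCNA in WT Polysome2 replicate 2. BUB1 and MKI67 were highest in WT Input replicate 3 instead. By WT means, Input was above Polysome2 for TOP2A (34.6 against 13.6 TPM), CCNA2 (27.5 against 23.6 TPM), BUB1 and MKI67. For CCNB1, CDK1, PLK1, CDC20, MCM2 and PCNA the WT mean was highest in Polysome2. BUB1 was listed at 0 in 14 and MKI67 in 15 of the 36 libraries, while CDK1 was listed at 0 in 2 and the other 7 in none.

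**Figure D2:**
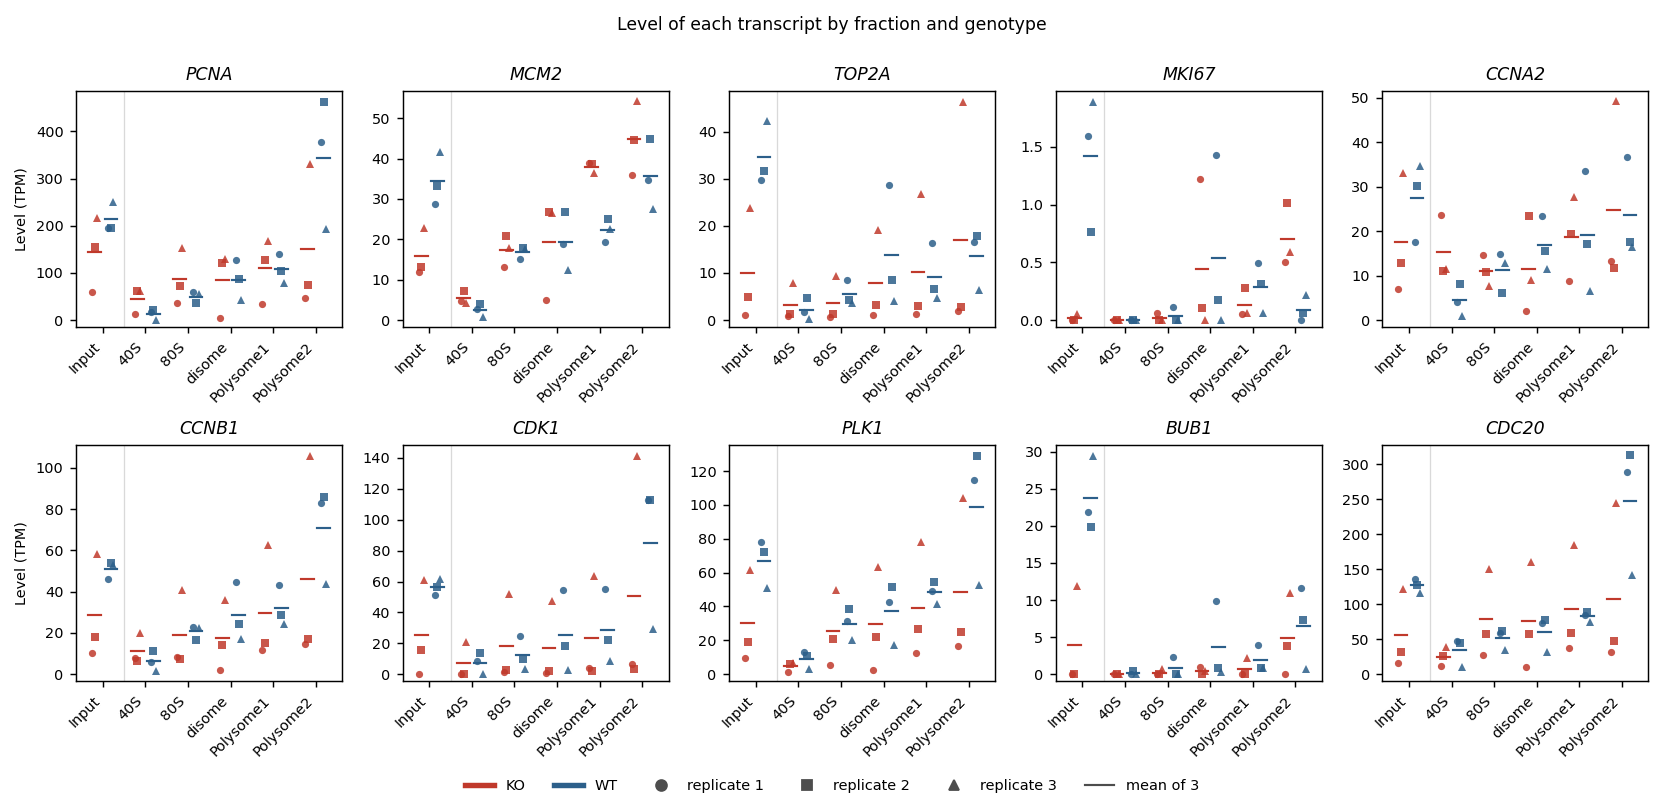
Level of each transcript in TPM (linear axis, scaled per panel) by fraction, with KO in red left of WT in blue. Points are single libraries with a symbol per replicate number, and lines are means of 3. KO replicate 3 lies above the other KO replicates in Input for every transcript, and the WT mean is lowest in 40S for all 10.

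The first comparison set KO Input against WT Input, which asks how RBPMS loss relates to the steady level of these mRNAs. All 10 transcripts had a lower mean in KO, and 2 of the 10, BUB1 and MKI67, fell past the threshold (limma on log2(TPM + 1), adjusted p under 0.05). Lower calls made up 18.0% of all tested transcripts, so the share of members called was near the background. The members' median log2 difference was -1.36, against -0.51 over all tested transcripts. After quantile normalization these medians were -0.92 and 0.00. In 4 of 10 (TOP2A, MKI67, BUB1, MCM2) KO and WT did not overlap and KO was lower, against 29.0% of all tested transcripts.

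The spindle checkpoint kinase BUB1, which guards chromosome attachment in mitosis, showed the largest log2 difference of the 10. It was listed at 0, 0 and 11.9 TPM in KO Input, against 21.9, 19.8 and 29.5 TPM in WT Input, and the log2 difference was -3.38 (SE 0.89; limma adjusted p = 0.007733). The WT libraries were all higher than the KO libraries, and KO replicate 3 lay between the listed zeros and WT. The BUB1 call ended without KO replicate 1 (-2.76, limma adjusted p = 0.08993) and without KO replicate 2 (-2.76, limma adjusted p = 0.1329).

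The other mitotic regulators did not pass the test in Input. PLK1, a kinase of mitotic entry and spindle assembly, had 9.42, 19.1 and 61.6 TPM in KO Input, against 78.3, 72.0 and 51.1 TPM in WT Input, and differed by -1.51 (SE 0.90; limma adjusted p = 0.2341). CDC20 had 16.0, 31.6 and 121 TPM in KO Input, against 137, 127 and 116 TPM in WT Input, and differed by -1.65 (SE 0.89; limma adjusted p = 0.1891). For both, KO replicates 1 and 2 were below every WT library, while KO replicate 3 lay within the WT range.

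The cyclins and their kinase showed a like arrangement of libraries. CDK1, the kinase that triggers mitosis, had 0.208, 15.5 and 60.8 TPM in KO Input, against 51.0, 56.2 and 61.9 TPM in WT Input, and differed by -2.42 (SE 1.60; limma adjusted p = 0.287). Cyclin B1 (CCNB1), its main partner in mitosis, had 10.02, 18.0 and 58.2 TPM in KO Input, against 46.2, 53.7 and 52.7 TPM in WT Input, and differed by -1.16 (SE 0.86; limma adjusted p = 0.3434). KO replicate 3 had the highest CCNB1 level of the 6 Input libraries. Cyclin A2 (CCNA2), which acts in S phase and G2, had 7.01, 12.9 and 33.0 TPM in KO Input, against 17.5, 30.2 and 34.7 TPM in WT Input, and differed by -0.81 (SE 0.74; limma adjusted p = 0.4473). None of these 3 passed the test, and KO and WT overlapped for each.

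Of the transcripts linked to chromosome structure, MKI67, which encodes the proliferation marker Ki-67 that coats mitotic chromosomes, was listed at 0, 0 and 0.0562 TPM in KO Input, against 1.60, 0.764 and 1.89 TPM in WT Input. It differed by -1.22 (SE 0.26; limma adjusted p = 0.001308), and by -3.62 with a pseudocount of 0.1, since its values are near 0. The MKI67 call ended after ERCC scaling (-1.48, limma adjusted p = 0.09639), after quantile normalization (-0.61, limma adjusted p = 0.3276) and after median-of-ratios scaling (-0.86, limma adjusted p = 0.1297). TOP2A, the topoisomerase that untangles sister chromatids, had 0.975, 4.99 and 23.9 TPM in KO Input, against 29.7, 31.7 and 42.4 TPM in WT Input, and differed by -2.40 (SE 1.07; limma adjusted p = 0.1107). Its KO libraries were all lower than its WT libraries, but the difference did not pass the test.

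The replication genes did not pass the test either. MCM2, a subunit of the replicative helicase, had 11.9, 13.1 and 22.9 TPM in KO Input, against 28.6, 33.1 and 41.6 TPM in WT Input, and differed by -1.10 (SE 0.51; limma adjusted p = 0.1254). Its groups did not overlap. PCNA had 59.2, 156 and 216 TPM in KO Input, against 196, 195 and 251 TPM in WT Input, and differed by -0.75 (SE 0.997; limma adjusted p = 0.6198). KO replicate 3 again lay within the WT range.

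The summed level of the 10 transcripts ran in the same order as the number of transcripts found in a KO Input library. It was 115, 271 and 609.8 TPM in KO Input, against 607 to 683 TPM in WT Input. The part of library content in the result was not tested. Without KO replicate 3, 8 of the 10 passed the test in Input, all but CCNA2 and PCNA, while 38.0% of all tested transcripts were called lower. Without KO replicate 1 the count was 1 (6.58% of all lower) and without KO replicate 2 it was 1 (3063 of 51052 lower). A limma fit of the Input libraries alone gave 0, with 0.0686% of all tested transcripts called lower. In that fit 4 of the 10 had an unadjusted p under 0.05, as did 14501 of all 51052 tested transcripts. With KO replicates 1 and 2 both left out, the members' median log2 difference was -0.08, and it was above 0 for CCNA2, CCNB1, CDK1 and PCNA. The median over the 10 transcripts of the replicate SD on the log2 scale was 1.27 in KO Input and 0.265 in WT Input, against 0.582 and 0.323 over all tested transcripts.

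**Figure D3:**
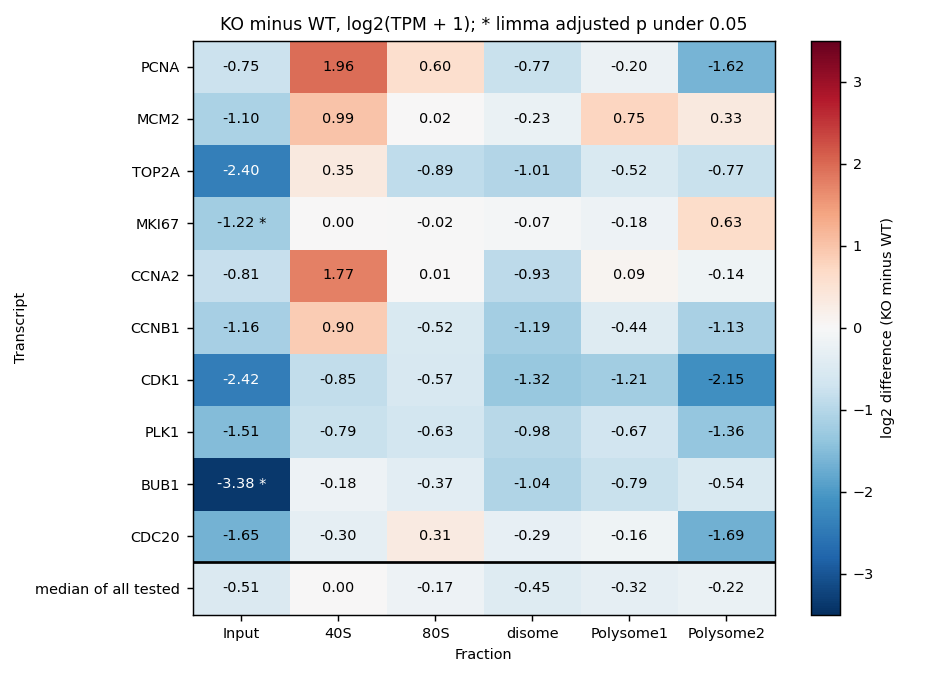
Difference between KO and WT in log2(TPM + 1) for each transcript (rows) in each fraction (columns), with the median over all tested transcripts in a row of its own. Red marks higher and blue lower values in KO, and a star marks a limma adjusted p under 0.05. The 2 stars are for BUB1 and MKI67 in Input, where all 10 transcripts are blue.

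Along the gradient none of the 10 transcripts passed the limma test between KO and WT with all 36 libraries. In 40S, where 0.0235% of all tested transcripts were called, 1 of the 10 had an unadjusted p under 0.05 and the members' median log2 difference was 0.17, against 0.00 over all tested transcripts. In 80S (0.599% called) these were 0 of the 10, -0.20 and -0.17. Disome libraries (2.78% called) gave 0 of the 10, -0.95 and -0.45. Polysome1 (5.42% called) gave 0 of the 10, -0.32 and -0.32, and Polysome2 (5.52% called) gave 1 of the 10, -0.95 and -0.22. These percentages are of calls at the adjusted p. At an unadjusted p under 0.05, 40S had 2886, 80S had 8576 and disome had 11047 of all 51052 tested transcripts. Polysome1 had 14312 and Polysome2 had 13400 of them at that unadjusted level. Without KO replicate 3, 5 of the 10 (CCNB1, CDK1, TOP2A, PLK1, CDC20) passed in Polysome2 and 2 (CCNB1, TOP2A) in disome, all of them lower in KO. In that setting 25.3% of all tested transcripts were called lower in Polysome2 and 28.2% in disome, so the share of members in disome was near the background.

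In Polysome2, KO replicate 3 lay within the WT range or above it for CDK1, CDC20 and PCNA, and the other KO replicates were low. CDK1 had 6.37, 3.24 and 141 TPM in KO Polysome2, against 113, 113 and 29.3 TPM in WT Polysome2, and differed by -2.15 (SE 1.60; limma adjusted p = 0.4004). CDC20 had 32.0, 46.8 and 244 TPM in KO Polysome2, against 289, 312 and 141 TPM in WT Polysome2, and differed by -1.69 (SE 0.89; limma adjusted p = 0.2255). PCNA had 45.8, 74.3 and 332 TPM in KO Polysome2, against 377, 463 and 193 TPM in WT Polysome2, and differed by -1.62 (SE 0.997; limma adjusted p = 0.3024). In all 3, WT replicate 3 was the lowest WT library and KO replicate 3 the highest KO library, so the groups overlapped.

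CCNB1, PLK1 and TOP2A had the same high KO replicate 3 in Polysome2. CCNB1 had 14.9, 17.2 and 106 TPM in KO Polysome2, against 82.9, 85.8 and 43.9 TPM in WT Polysome2, and differed by -1.13 (SE 0.86; limma adjusted p = 0.4091). PLK1 had 16.7, 24.7 and 104 TPM in KO Polysome2, against 115, 129 and 52.8 TPM in WT Polysome2, and differed by -1.36 (SE 0.90; limma adjusted p = 0.3379). TOP2A had 1.84, 2.68 and 46.4 TPM in KO Polysome2, against 16.6, 17.8 and 6.47 TPM in WT Polysome2, and differed by -0.77 (SE 1.07; limma adjusted p = 0.6868). KO replicates 1 and 2 lay below every WT library in all 3, and KO replicate 3 was the highest of the 6 libraries for CCNB1 and TOP2A. BUB1 had 0, 3.79 and 10.9 TPM in KO Polysome2, against 11.7, 7.35 and 0.650 TPM in WT Polysome2. It differed by -0.54 (SE 0.89, limma adjusted p = 0.7422), and KO replicate 2 lay above WT replicate 3. In disome the spread was wider in KO, with CCNB1 at 2.202, 14.1 and 35.9 TPM in KO disome, against 44.5, 24.4 and 17.1 TPM in WT disome. The lowest of these was KO disome replicate 1, the library in which few transcripts held most of the TPM.

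None of the 10 lay lower in KO without overlap in Polysome2 or disome, where 13.8% and 13.0% of all tested transcripts did. MKI67 had 0.505, 1.01 and 0.586 TPM in KO Polysome2, against 0, 0.0581 and 0.214 TPM in WT Polysome2. KO values were all above WT values, as for 9.86% of all tested transcripts, and the difference of 0.63 (SE 0.26; limma adjusted p = 0.1272) did not pass the test. After ERCC scaling it was -0.81.

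MCM2 was arranged differently in the lighter polysomes. It had 38.9, 38.5 and 36.4 TPM in KO Polysome1, against 19.4, 25.0 and 22.5 TPM in WT Polysome1. All KO libraries were higher than all WT libraries, while in Input all were lower, and the difference of 0.75 (SE 0.51; limma adjusted p = 0.3315) did not pass the test. After ERCC scaling the MCM2 difference was -3.43. It was the single one of the 10 with KO above WT without overlap in Polysome1, against 9.17% of all tested transcripts, and 0 of the 10 lay below, against 19.6%.

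MCM2 and CCNA2 were also higher in KO 40S without overlap, against 8.99% of all tested transcripts. MCM2 had 4.65, 7.30 and 4.17 TPM in KO 40S, against 2.64, 3.87 and 0.766 TPM in WT 40S. CCNA2 had 23.5, 10.97 and 11.6 TPM in KO 40S, against 4.16, 8.12 and 0.981 TPM in WT 40S. Neither passed the test (limma adjusted p = 0.936 for MCM2 and 0.6808 for CCNA2), and WT 40S replicate 3, which held few transcripts, was lowest for both. After ERCC scaling both differences turned to below 0, at -0.42 for MCM2 and -0.37 for CCNA2.

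A pair of comparisons within WT sets the share of these mRNAs in a fraction against their share in Input or in another fraction. TPM sums to the same total in every library, so the values do not show how the molecules are distributed along the gradient. In WT 40S, the fraction of small ribosomal subunits and light particles, 8 of the 10 transcripts were lower than in WT Input (limma adjusted p under 0.05), while 42.5% of all tested transcripts were called lower. The members' median log2 difference was -3.29, against -0.95 over all tested transcripts, and all 10 lay below WT Input without overlap, against 57.2% of all tested transcripts.

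PCNA had 17.6, 22.3 and 0.997 TPM in WT 40S, against 196, 195 and 251 TPM in WT Input, and differed by -4.48 (SE 0.997; limma adjusted p = 0.0006796). MCM2 had 2.64, 3.87 and 0.766 TPM in WT 40S, against 28.6, 33.1 and 41.6 TPM in WT Input, and differed by -3.47 (SE 0.51; limma adjusted p = 6.152e-06). In both, the third 40S library was far below the other two. CDC20 and CDK1 did not pass, with differences of -2.14 (SE 0.89; limma adjusted p = 0.05255) and -3.45 (SE 1.60; limma adjusted p = 0.08143). Without WT replicate 3, whose 40S library stood apart, 3 of the 10 passed (MKI67, BUB1, MCM2), while 24.0% of all tested transcripts were called lower, so the members' share was near the background. Median-of-ratios scaling moved the median of all tested transcripts to -0.16 and that of the members to -1.11, 3 of the 10 (BUB1, MCM2, PCNA) passed, with 21.1% of all called lower, and CDC20 turned to 0.44. After quantile normalization the medians were 0.03 and -1.64, and 4 of the 10 passed, with 15.7% of all called lower.

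In WT Polysome2 all 10 transcripts had a higher mean log2 level than in WT 80S, the fraction of single ribosomes. The members' median log2 difference was 1.66, against 0.23 over all tested transcripts. In 7 of the 10 (CCNB1, CCNA2, CDK1, PLK1, CDC20, MCM2, PCNA) every Polysome2 library was above every 80S library, against 30.6% of all tested transcripts. With all 36 libraries in the fit 0 of the 10 passed the limma test, while 8.63% of all tested transcripts were called higher. An unadjusted p under 0.05 was found for 3 of the 10, and for 15620 of all 51052 tested transcripts. With the culture as a fixed replicate block, 4 of the 10 (CDK1, PLK1, CDC20, PCNA) rose, and 13.3% of all tested transcripts were called higher. With only these 6 libraries and no block, 5 of the 10 rose (CCNB1, PLK1, CDC20, MCM2, PCNA), and 19.0% of all tested transcripts were called higher. Leaving out KO libraries also changed the count, to 2 without KO replicate 1 (11.6% of all higher) and 4 without KO replicate 3 (19.7% of all higher), since all groups share 1 estimate of the spread.

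PCNA had 377, 463 and 193 TPM in WT Polysome2, against 59.0, 35.3 and 54.7 TPM in WT 80S, and differed by 2.71 (SE 0.997; limma adjusted p = 0.06752), with a limma adjusted p of 0.04129 under the culture block. CDC20 had 289, 312 and 141 TPM in WT Polysome2, against 59.1, 61.1 and 34.3 TPM in WT 80S, and differed by 2.21 (SE 0.89; limma adjusted p = 0.09365), with a limma adjusted p of 0.02822 under the culture block. Both were several times higher in Polysome2 in every WT culture. BUB1 had 11.7, 7.35 and 0.650 TPM in WT Polysome2, against 2.27, 0.0886 and 0 TPM in WT 80S, and differed by 1.87 (SE 0.89; limma adjusted p = 0.152). MKI67 differed least, by 0.07 (SE 0.26; limma adjusted p = 0.9074), with all values below 1 TPM in both fractions.

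In KO the same pair of fractions had a median log2 difference over the members of 0.99, against 0.14 over all tested transcripts. By limma 0 of the 10 passed, with 1.45% of all tested transcripts called. An unadjusted p under 0.05 was found for 2 of the 10, and for 4479 of all 51052 tested transcripts. The difference between the genotypes was tested as an interaction term, and 0 of the 10 passed the limma test, with 0.0901% of all tested transcripts called. At an unadjusted p under 0.05 there were 0 of the 10, and 4551 of all 51052 tested transcripts. The members' median interaction term was -0.39, against -0.06 over all tested transcripts.

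Within cultures, log2 Polysome2 minus 80S of CDC20 was 0.21, -0.29 and 0.69 in KO, against 2.27, 2.34 and 2.01 in WT. For PCNA it was 0.34, 0.02 and 1.12 in KO, against 2.66, 3.68 and 1.80 in WT. For CDK1 it was 1.80, 0.31 and 1.43 in KO, against 2.16, 3.38 and 2.74 in WT. KO lay below WT without overlap in these 3 of 10, against 14.9% of all tested transcripts. The interaction terms did not pass the test, at -2.00 (SE 1.26; limma adjusted p = 0.6802) for CDC20, -2.22 (SE 1.41; limma adjusted p = 0.6843) for PCNA and -1.58 (SE 2.26; limma adjusted p = 0.873) for CDK1. MKI67 was the single one with KO above WT, against 11.8% of all tested transcripts, at levels near 0. MCM2 had 1.39, 1.06 and 1.55 in KO, against 1.15, 1.29 and 0.62 in WT, so the genotypes overlapped, and its interaction term was 0.31 (SE 0.72; limma adjusted p = 0.9348), and -2.17 after ERCC scaling. With 3 cultures a side, an exact permutation test of a single transcript cannot give a p below 0.1.

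**Figure D4:**
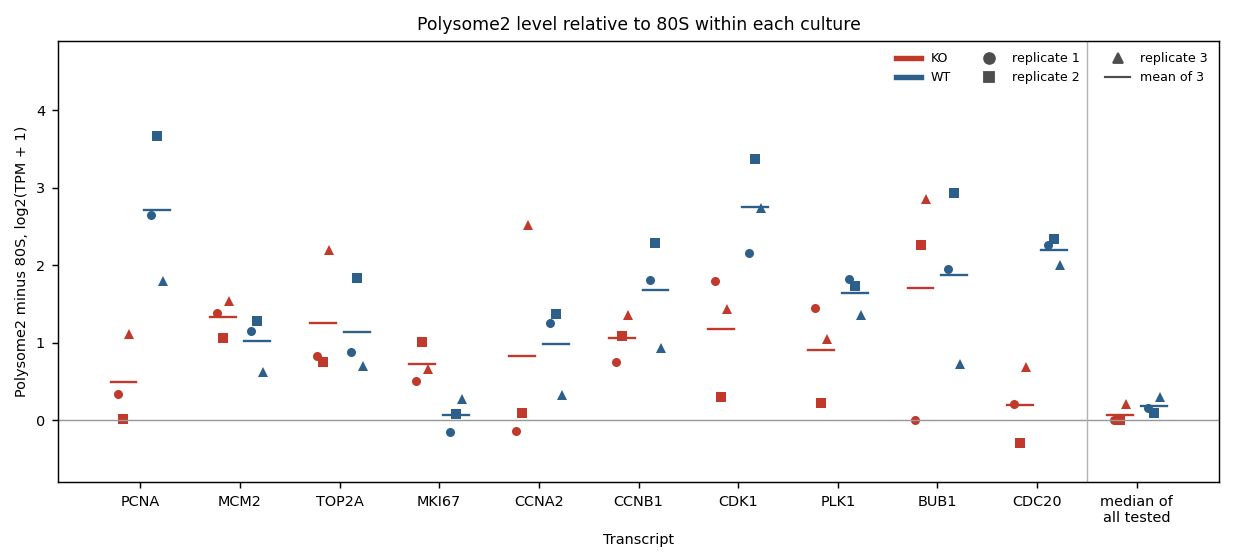
Polysome2 minus 80S in log2(TPM + 1) within each culture, for the 10 transcripts and the median over all tested transcripts, with KO in red left of WT in blue. Points are single cultures. For PCNA, CDK1 and CDC20 all 3 KO cultures lie below all 3 WT cultures, and for MCM2 they overlap.

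The 10 transcripts varied together over the 36 libraries to different degrees. Across their 45 pairs, Pearson's r of log2(TPM + 1) had a median of 0.707, and 15 pairs were above 0.8. These are descriptions over libraries that share 6 cultures and a fixed library total. The closest pair was PLK1 and CDC20 (r = 0.946), followed by CDK1 and TOP2A (r = 0.927) and CCNB1 and TOP2A (r = 0.907). CCNB1 had r of 0.898 to 0.907 with CDK1, PLK1, CDC20, PCNA and TOP2A. MCM2 had r of 0.482 with BUB1, 0.519 with CDK1 and 0.803 with PCNA. MKI67 had the lowest values, from 0.141 with CDC20 to 0.663 with BUB1, the other transcript listed at 0 in many libraries.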

How the data were processed

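Stranded paired-end mRNA libraries of 36 samples were summarised by the authors as TPM per transcript. The deposited TPM values sum to 1000000 per library, and the submitters' processing notes name kallisto, sleuth and the build hg19 without versions. Depth per library is therefore unknown. The table held 223367 transcript IDs and 92 ERCC rows, which were set aside. Gene symbols came from the rule that chose the 10 members. The gene table used here holds Ensembl IDs for 0 of 59792 genes, so the planned lists of further cell cycle genes and of cell type markers, and the search for similar transcripts, were not analysed here. Members and lists were chosen with earlier results of these data known.

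The filter kept 51052 transcripts that reached 1 TPM in 3 or more libraries. Their log2(TPM + 1) was modelled with limma 3.58.1 (R 4.3.3) as 12 group means over all 36 libraries (variance trend, 24 residual degrees of freedom), with Benjamini-Hochberg adjustment over all tested transcripts in each of 10 comparisons and a threshold of 0.05. The design allowed for counts, and the test for TPM was used. All 10 members are named, whatever their values. The fit takes libraries of a culture as independent. Nothing says that cultures came from separate clones or days, so p-values measure the spread between these cultures, which may be technical. The fractions of a culture share its name in the sample descriptions, which is the source of the pairing. Deviations from group means correlated at 0.521 to 0.772 between the Polysome2 and 80S libraries of KO cultures, 0.027 to 0.122 of WT cultures, and 0.046 to 0.083 between WT 40S and Input. Promoter sequences are RefSeq's (GRCh38.p14, 1 window per gene, the first listed). The model was tested on simulated data in which libraries varied independently, so that test does not cover the correlation within cultures. Python 3.11.15 made the tables and figures. Alternatives were another pseudocount, filters, scalings, blocks, only the libraries compared, and left-out cultures.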

Additional observations from a re-analysis of the deposited data

How the results depend on the processing

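Counts below are of the 10 transcripts called, with the value of all 36 libraries first. KO against WT in Input gave 2. With a filter of 10 TPM, which removed MKI67, it gave 1 (BUB1) of 9 tested, with 6.90% of all tested transcripts called lower. It gave 1 (BUB1) after quantile normalization (9.08% lower) and 1 (BUB1) after median-of-ratios scaling (12.7% lower). ERCC scaling gave 6 (with BUB1 but without MKI67). The count was 0 with only the Input libraries and 0 with the replicate number as a fixed replicate block. Leaving out single cultures gave 1 to 8 in Input. KO against WT gave 0 in every gradient fraction, and under ERCC scaling Polysome2 had 9, Polysome1 had 10, disome had 6 and 80S had 1, all lower in KO. Of all tested transcripts, 76.1%, 76.2%, 53.3% and 23.9% were then called lower in the same order, and 13.5% in Input. Leaving out single cultures gave 0 to 2 in disome and 0 to 5 in Polysome2. ERCC scaling, under which KO libraries with high spike-in totals are scaled down, turned the KO and WT direction of 5 of the 10 in 40S, 4 in 80S, 2 in Polysome1 and 2 in Polysome2, all to below 0. The turned differences that passed the test were MCM2 in 80S (-2.72), Polysome1 (-3.43) and Polysome2 (-4.89) and CCNA2 in Polysome1 (-3.95). Quantile normalization and median-of-ratios scaling each turned 4 in disome (MKI67, CDC20, MCM2, PCNA) to above 0, none past the test. The spike-in totals rest on 7 to 56 of 92 rows above 0. WT 40S against WT Input gave 8, with 4 under quantile normalization, 3 under median-of-ratios scaling and 3 to 10 with single cultures left out. The 10 came without KO replicate 3, with 50.3% of all tested transcripts called lower. WT Polysome2 against WT 80S gave 0. It gave 1 after quantile normalization (5.84% of all tested transcripts called higher), 9 after ERCC scaling (52.5%) and 5 with only the libraries compared (19.0%). With culture as a random replicate block it gave 6 (21.1%), and as a fixed replicate block 4 (13.3%). Leaving out single cultures gave 0 to 4 (0.592% to 19.7%). The cause of these shifts was not tested. The random culture block (estimated correlation 0.326) gave 3 in Input, with 20.7% of all tested transcripts called lower. The replicate blocks changed no other count by over 1.5 times. Numbers pair KO with WT only by name, as their deviations correlated at -0.709 to 0.107. The remaining comparisons gave 0 under the alternatives run.

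Over all tested transcripts, calls ranged widely across alternatives. They were 0 to 22990 for KO against WT in Input (10192 with all libraries), 0 to 2396 in 40S (12), 0 to 12241 in 80S (306), 0 to 27302 in disome (1420), 0 to 39131 in Polysome1 (2769) and 0 to 39009 in Polysome2 (2817). For WT 40S against WT Input they were 6478 to 38285 (22047), for WT Polysome2 against WT 80S 465 to 28171 (6673), for KO Polysome2 against KO 80S 0 to 1820 (739), and for the difference between genotypes 0 to 6137 (46). ERCC scaling left 99.6% of calls lower in KO Polysome2, against 65.6%.

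Depth is not recorded in TPM, so no limit of detection can be set for the values listed at 0, which limits BUB1 and MKI67 most.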
